A study of Mus musculus with 4 samples.

Results

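Desmosomes are cell-cell junctions of epithelia and heart muscle that anchor intermediate filaments to the cell surface. The genes described here are those of their plaque and cadherins: Dsp, Jup, Pkp1, Pkp2, Pkp3, Dsc2, Dsg2, Perp, Ppl and Evpl. Each probe set that the array's annotation pairs with exactly 1 of these 10 symbols was taken, whatever its values, which gave 22 of the 34945 probe sets with 1 symbol. They are 10 of 18193 genes so named on the array. All 10 had at least 1 probe set above the filter on dim signals, as did 11956 genes in all.

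In a desmosome, the cadherins desmoglein (Dsg) and desmocollin (Dsc) reach across the gap between cells and bind each other. Inside the cell their tails bind plakoglobin (Jup) and the plakophilins (Pkp1, Pkp2 and Pkp3), which are armadillo-repeat proteins. Plakoglobin and the plakophilins bind desmoplakin (Dsp), a plakin whose tail holds keratin filaments. Desmosomes of simple epithelia rest mainly on Dsg2, Dsc2 and Pkp2, while Pkp1, periplakin (Ppl) and envoplakin (Evpl) are best known from stratified epithelia.

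The samples were cultured 4T1 cells, a line from a mouse mammary carcinoma, and their RNA was read on 4 one-colour Affymetrix arrays. The labels divide the cells by CD44v8-10, a splice form of the surface receptor CD44 that carries variant exons, into 2 positive and 2 negative samples. Both groups were kept in normoxia and in RPMI medium with bovine serum, and the labels name no genotype, agent or time that differs between them. The labels say that cells were picked by hand under a microscope, but not how CD44v8-10 was scored on them. The labels do not say whether a group's samples were separate cultures, so the p-values speak for the scatter of these samples alone, and that scatter may be technical.

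The deposited arrays were not equally bright, with 2% trimmed mean intensities of 237 and 220 for positive replicates 1 and 2 and of 196 and 345 for the negative replicates, so signals below are quantile normalized. The pair of positive arrays had a Pearson correlation of 0.972 across genes and the negative pair 0.981. Positive replicate 2 stood apart, at 0.968 to 0.972 with every other array, where the remaining pairs had 0.980 to 0.985. Fold changes of the 10 genes are therefore also given without it. The simple-epithelial keratins Krt8 and Krt18 were bright in all arrays (7719 to 12998). The epithelial adhesion molecule Epcam moved with the groups, at 2309 and 2479 on the positive arrays against 940.2 and 930.2 on the negative ones (log2 fold change 1.34, adjusted p 0.0118 by limma). The call of Epcam was lost with no scaling between arrays. Of 6 epithelial markers all 6 lay above 0, as did 54.3% of all genes tested. At an unadjusted p under 0.05 by limma 3 were higher (2.68% of all genes), and 1, Epcam, was called higher (0.0753%). The part of these markers in the desmosome differences was not tested.

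Most desmosome genes had higher signals in CD44v8-10-positive than in negative cells, but no single one passed the test over all genes. Of the 10 genes, 9 had a log2 fold change above 0, as did 54.3% of all genes tested, and their median was 0.68 where that of all genes was 0.03. In 7 of the 10 each positive array was above each negative array, which held for 18.5% of all genes. The 7 were Pkp1, Pkp3, Dsg2, Perp, Dsc2, Ppl and Evpl. Pkp2, the plakophilin of simple epithelia and heart, was the one gene below 0. At its brightest probe set each positive array was just below each negative array, as in 13.8% of all genes. Fold changes are positive minus negative on the log2(signal + 16) scale, which understates differences of dim genes.

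By limma with Benjamini-Hochberg adjustment over 11956 genes, 0 desmosome genes were called higher and 0 lower at an adjusted p of 0.05, against 0.0753% and 0% of all genes. Taken at an unadjusted p under 0.05, 4 were higher (Pkp1, Pkp3, Perp and Dsg2) and none (0) lower, against 2.68% and 1.76% of all genes. Without positive replicate 2 the median of the 10 was 0.42, and 9 of them stayed above 0. With no scaling between arrays the count of genes with groups apart and the positive side higher fell from 7 to 2 (Pkp1 and Dsc2), while the median of all genes moved to -0.15 and that of the desmosome genes was 0.49, with 8 above 0.

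**Figure D1:**
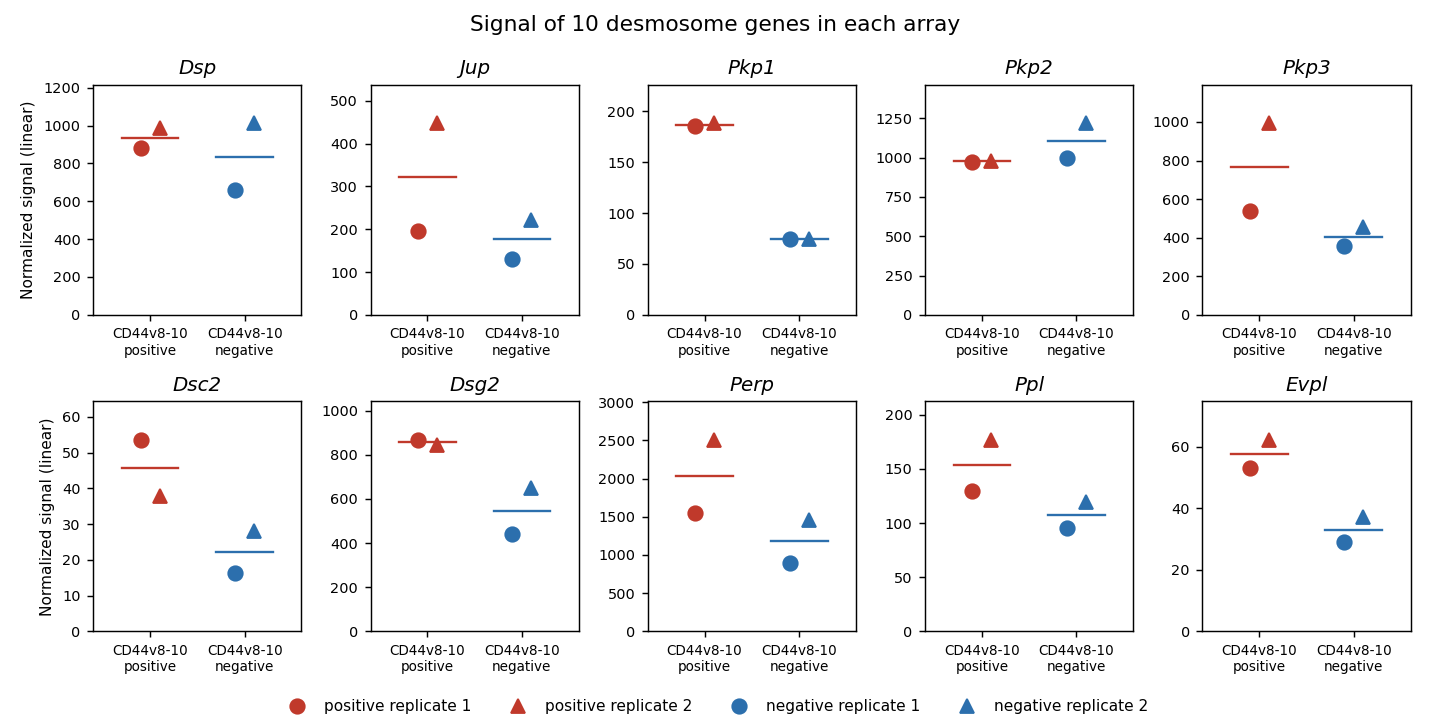
Quantile-normalized signal (linear axis from 0) of the brightest probe set of each of the 10 genes in the 4 arrays; circles are replicate 1, triangles replicate 2, red CD44v8-10 positive, blue negative, and lines are group means. In Pkp1 the positive arrays (185 and 188) lie far above the negative arrays (74.4 and 74.5), while in Dsp and Jup the groups overlap.

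Pkp1 had the largest fold change of the 10 genes. This plakophilin strengthens desmosomes of stratified epithelia by clustering desmoplakin and cadherins. Its signal was 185 and 188 in the positive arrays and 74.4 and 74.5 in the negative arrays. The replicates of each group lay close together, and the lowest positive signal was 2.49 times the highest negative one. The group means were 187 ± 2.01 and 74.5 ± 0.0530 (SD, n = 2 each).

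The fitted log2 fold change of Pkp1 was 1.16 ± 0.25 (SE), or 2.24-fold, with a 95% interval of 0.63 to 1.70. In limma the SE draws on the scatter of genes of similar brightness, so it is not that of the Pkp1 replicates alone. It was the 19th of 11956 genes by unadjusted p (0.000451), and its adjusted p by limma was 0.278. The deposited intensities, before normalization, were 167 and 166 on the positive arrays and 55.9 and 108 on the negative ones. The near-identity of the negative values thus holds only after normalization. Leaving out any 1 array gave 1.15 to 1.17, with 1.15 without positive replicate 2.

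Pkp3, a plakophilin found in most desmosomes of epithelia, had signals of 538 and 993 in the positive arrays and 356 and 455 in the negative arrays. The groups did not overlap, but the positive replicates differed by a factor of 1.85. Its log2 fold change was 0.84 ± 0.28 (SE; 95% interval 0.23 to 1.44; unadjusted p 0.0107, adjusted p 0.980 by limma), 0.40 without positive replicate 2 and 1.27 without positive replicate 1. The second Pkp3 probe set read 219 and 336 against 140 and 202, again without overlap, and gave 0.64.

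Pkp2 did not follow Pkp1 and Pkp3. Its brightest probe set read 974 and 979.8 in the positive arrays and 998 and 1219 in the negative arrays. The positive arrays were both lower, by a margin smaller than the gap between the negative replicates. The log2 fold change was -0.17 ± 0.20 (SE; 95% interval -0.60 to 0.26; limma adjusted p 0.985), and -0.18 without positive replicate 2. The other Pkp2 probe sets above the filter gave -0.06 and 0.02, both with overlapping groups. The remaining one was below the filter level in every array, at 1.70 to 15.4. The interval of Pkp2 ends below the start of that of Pkp1, at 0.26 against 0.63, but the difference between the plakophilins was not tested.

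Of the desmosomal cadherins, Dsg2 is the desmoglein of simple epithelia and Dsc2 its desmocollin partner. Dsg2 read 868 and 844 in the positive arrays and 442 and 648 in the negative arrays. Here the positive replicates were close and the negative replicates were not, and both positive arrays were higher. Its log2 fold change was 0.66 ± 0.23 (SE; 95% interval 0.17 to 1.16; unadjusted p 0.0130, adjusted p 0.985 by limma), 0.68 without positive replicate 2, 0.39 without negative replicate 1 and 0.93 without negative replicate 2.

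Dsg2 is the member with the most probe sets, 6, all above the filter. All 6 had fold changes above 0, from 0.17 to 0.66. In 5 of them the groups did not overlap. The exception was a dim probe set, with 69.5 and 50.5 on the positive arrays against 47.4 and 55.0. Over all 10 genes, 20 of the 22 probe sets were above the filter and were also fitted one by one. Of these 18 lay above 0 (52.5% of all probe sets so fitted), 13 had each positive array above each negative one (17.5%), and 6 were higher at an unadjusted p under 0.05 (2.23%). After adjustment over all probe sets 0 of the 20 passed by limma (0.0489%).

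Dsc2 read 53.55 and 37.8 in the positive arrays and 16.3 and 28.0 in the negative arrays. The groups did not overlap, and the lower negative signal was under the filter level of 19.4, so its log2 fold change of 0.70 ± 0.38 (SE; 95% interval -0.12 to 1.52; limma adjusted p 0.985) is no exact size. It was 0.35 with a pseudocount of 64 and 1.04 with a pseudocount of 1, and 0.88 without positive replicate 2. The second Dsc2 probe set was below the filter and overlapped between the groups, with 45.2 and 4.90 in the positive arrays and 36.9 and 6.68 in the negative arrays.

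**Figure D2:**
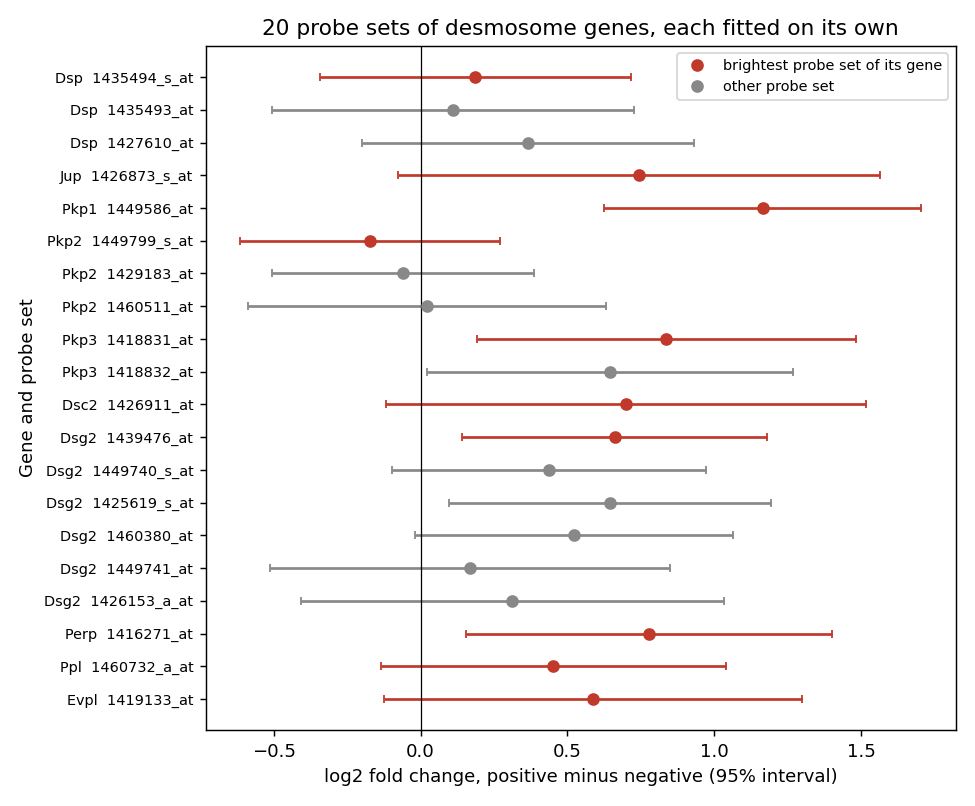
Log2 fold change, positive minus negative, with its 95% interval for the 20 probe sets above the filter, each fitted on its own; red marks the brightest probe set of a gene, grey the others. The 6 Dsg2 probe sets lie between 0.17 and 0.66, and the 3 Pkp2 probe sets between -0.17 and 0.02.

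The brightest probe sets of Dsp and Jup, which link the cadherins to keratin filaments, overlapped between the groups. Desmoplakin, the obligate plakin of the desmosome, read 883 and 984 in the positive arrays and 659.55 and 1012 in the negative arrays. Negative replicate 2 was the highest of the 4 arrays and negative replicate 1 the lowest. The log2 fold change of Dsp was 0.19 ± 0.23 (SE; 95% interval -0.32 to 0.69; limma adjusted p 0.985), 0.11 without positive replicate 2 and -0.12 without negative replicate 1. Its other probe sets gave 0.11, with overlapping groups, and 0.37, without overlap. The latter read 134 and 171 in the positive arrays against 105 and 123 in the negative arrays.

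Plakoglobin, which is shared by desmosomes and adherens junctions, read 195 and 447 in the positive arrays and 131 and 222 in the negative arrays. Positive replicate 2 was far above the rest, while positive replicate 1 lay below negative replicate 2. The log2 fold change of Jup was 0.74 ± 0.35 (SE; 95% interval -0.01 to 1.502; unadjusted p 0.0539, adjusted p 0.985 by limma). It was 0.18 without positive replicate 2, 1.31 without positive replicate 1 and 0.40 without negative replicate 1. Jup has 1 probe set, of the less specific kind that can match several transcripts. The brightest probe sets of Dsp and Pkp2 are of that kind too.

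The RefSeq promoter table (GRCm38.p6) matched 2 of the 10 genes, Dsp and Jup, whose upstream sequences are shown because these genes encode the filament linkers described above. The 250 bases before each start were searched on both strands for CAGGTG (reverse complement CACCTG), the E-box bound by ZEB and SNAIL repressors, for AACCNGTT, the site of GRHL factors, for the AP-1 site TGANTCA, and for TATAAA. None of the 4 motifs was found in either window. Among all 32851 promoter windows they occurred in 17.2%, 1.79%, 6.75% and 12.4%. The sequences run 5′ to 3′ and are in lower case throughout, since no base belongs to a match. That of Dsp lies at chr13:38151044-38151293 on the plus strand, and that of Jup at chr11:100397840-100398040 on the minus strand, cut at the annotated end of the gene.
Dsp: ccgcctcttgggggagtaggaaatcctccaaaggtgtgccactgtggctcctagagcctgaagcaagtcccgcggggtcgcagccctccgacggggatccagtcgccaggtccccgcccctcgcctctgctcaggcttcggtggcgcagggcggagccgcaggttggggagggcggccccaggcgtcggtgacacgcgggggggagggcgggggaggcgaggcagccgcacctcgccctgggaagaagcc
Jup: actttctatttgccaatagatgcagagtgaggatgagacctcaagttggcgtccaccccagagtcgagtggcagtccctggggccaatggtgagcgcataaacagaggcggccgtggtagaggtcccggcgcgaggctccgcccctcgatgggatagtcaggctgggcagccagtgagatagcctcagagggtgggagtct
The printed stretches are rich in G and C, at 72.4% over 250 bases for Dsp and 60.2% over 201 bases for Jup.

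Perp, a tetraspan membrane protein of desmosomes and a target of p53 and p63, read 1554 and 2506 in the positive arrays and 895 and 1462 in the negative arrays. Both positive arrays were higher, but the lowest positive signal was only 1.06 times the highest negative one. Its log2 fold change was 0.78 ± 0.27 (SE; 95% interval 0.20 to 1.36; unadjusted p 0.0127, adjusted p 0.985 by limma). It was 0.44 without positive replicate 2, 0.43 without negative replicate 1 and 1.13 without negative replicate 2, where alone it passed the threshold (limma adjusted p 0.0489). Over the 18 alternatives tried for Perp the adjusted p ran from that value to 1.

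Ppl and Evpl, plakins that pair with each other at desmosomes and in the cornified envelope of skin, were both higher in each positive array. Periplakin read 129.5 and 177 in the positive arrays against 95.025 and 119 in the negative arrays. Envoplakin read 53.05 and 62.3 against 29.0 and 37.3. Their log2 fold changes were 0.45 (95% interval -0.12 to 1.02) for Ppl and 0.59 (95% interval -0.13 to 1.31) for Evpl, both with a limma adjusted p of 0.985. Without positive replicate 2 they were 0.25 and 0.50. Evpl was 0.33 with a pseudocount of 64 and 0.79 with a pseudocount of 1.

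**Figure D3:**
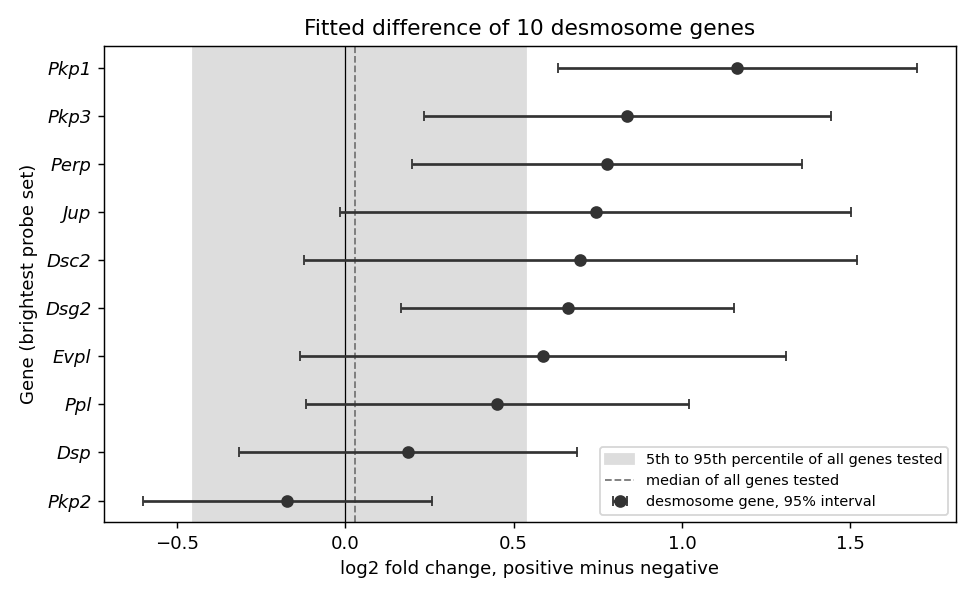
Fitted log2 fold change, positive minus negative, with 95% intervals for the brightest probe set of each gene; the grey band spans the 5th to 95th percentile of all genes tested (-0.45 to 0.54) and the dashed line is their median (0.03). Of the 10 genes, 7 lie to the right of the band, and Dsp, Ppl and Pkp2 lie within it.

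The spread between replicates of a group bears on all 10 genes. Negative replicate 2 was above negative replicate 1 in 10 of the 10, where 48.4% of all genes had that order, and the median difference was 0.39 on the log2 scale. Positive replicate 2 was above positive replicate 1 in 8 of the 10, against 50.8% of all genes, with a median of 0.17. Over all genes the median size of the replicate difference was 0.24 in the negative and 0.26 in the positive group. The part of this replicate order in the group difference was not tested. Leaving out negative replicate 1 gave a median of 0.41 over the 10, and leaving out negative replicate 2 gave 0.93.

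**Figure D4:**
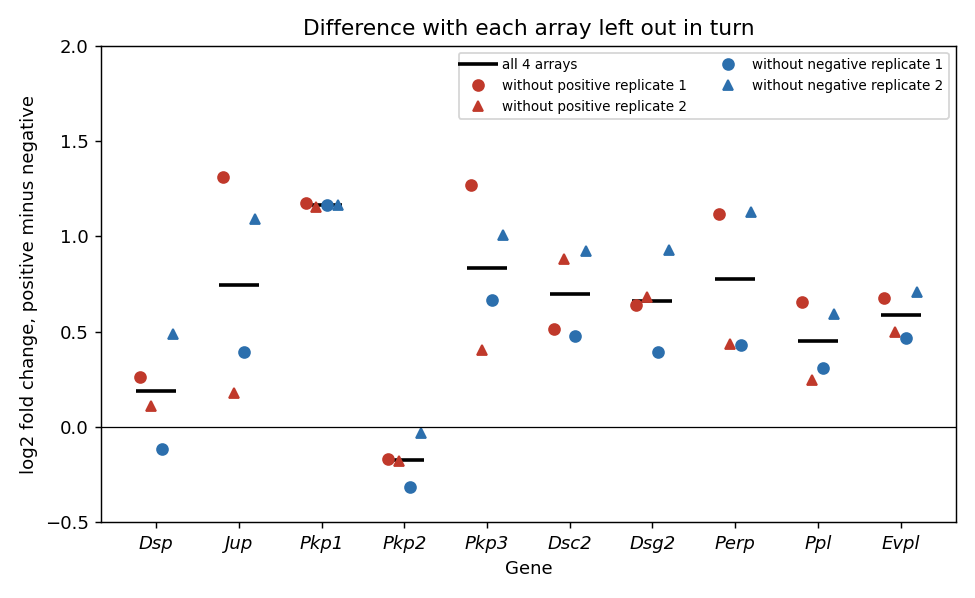
Log2 fold change, positive minus negative, with all 4 arrays (black bars) and with each array left out in turn (red, a positive array; blue, a negative array; circles replicate 1, triangles replicate 2). All 4 arrays were normalized together before any was left out. Pkp1 stays at 1.15 to 1.17, while Jup runs from 0.18 to 1.31 and Dsp from -0.12 to 0.49.

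Of 9 other desmosomal cadherins and plaque proteins, 6 had a probe set paired with their symbol alone, and Dsg1c, Dsg3 and Dsg4 were not analysed here. Of the 6, Dsc1, Dsc3, Dsg1a and Dsg1b, the isoforms of stratified epithelia, were left out by the filter, with signals of at most 28.2 in any array. Of those tested, Pkp4, a plakophilin relative found mainly at adherens junctions, had a log2 fold change of -0.01 and the corneodesmosome protein Cdsn 0.10, and 0 of 2 passed. Among 4 other plakins 0 passed (limma, with 1 higher and 0 lower by unadjusted p under 0.05, against 2.68% and 1.76% of all genes). The brightest, plectin (Plec), had 0.31 and dystonin (Dst) -0.22. The one under that unadjusted level was epiplakin (Eppk1), a keratin-binding plakin chosen here after its value was seen, at 163 and 216 against 103 and 89.2 and a fold change of 0.86 on the log2 scale (adjusted p 0.830 by limma).

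Keratins, the filaments that desmosomes anchor, had 8 of 12 genes tested, with fold changes above 0 in each (54.3% of all genes) and a median of 0.65. One of them, Krt5, had both negative arrays under the filter level (6.05 and 18.4, against 22.7 and 57.4) and so passed the filter through the positive group. The other 7 had a median of 0.57, and 4 of those 7 were higher at an unadjusted p under 0.05 (limma, 2.68% of all genes). Krt8 and Krt18, the main keratins of simple epithelia, were at 0.06 and 0.08 with overlapping groups. Of the keratins 1 passed over all genes, where 0.0753% were called higher. This was the basal keratin Krt14, at 681 and 831 on the positive against 218 and 149 on the negative arrays (log2 fold change 1.97 ± 0.24 SE, limma adjusted p 0.00547). Its call was lost with no scaling between arrays. Classical cadherins and catenins, the parts of adherens junctions, had 4 of 6 genes tested and a median of 0.16, and 0 passed, with 0 in either direction at an unadjusted p under 0.05 (limma). The brightest of them were β-catenin (Ctnnb1), a relative of plakoglobin, at -0.01 and α-catenin (Ctnna1) at 0.03. E-cadherin, Cdh1, overlapped between the groups, with 3502 and 3334 against 2139 and 3704.

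Genes of desmosome traffic, signalling and shedding had 9 of 10 tested and a median of -0.01. None of them passed (limma, 0 at an unadjusted p under 0.05), and the brightest were the GTPase Rhoa at -0.02 and the calcium pump Atp2a2 at 0.12. Transcription factors known to act on desmosome or epithelial genes had 10 of 13 tested, with a median of 0.17, and 0 passed by limma. By unadjusted p under 0.05, 1 was higher and 1 lower, against 2.68% and 1.76% of all genes. The brightest were Klf5 at -0.26 and Grhl2 at 0.07. The 2 under that unadjusted level, named after their values were seen, were Ovol1 (88.2 and 107 against 37.5 and 51.9; 0.91, adjusted p 0.980) and the repressor Zeb2 (118 and 122 against 190.3 and 218; -0.69, adjusted p 0.982). Groups were apart with the positive side higher in 4 of the 10 (18.5% of all genes), and lower in 1, Zeb2 (13.8%). The 4 were Ovol1, Ovol2 (46.5 and 50.3 against 14.0 and 35.4; 0.71, adjusted p 0.985) and the repressors Zeb1 and Snai1. Zeb1 read 36.8 and 33.2 against 9.72 and 26.2 (0.63, adjusted p 0.985), and Snai1 108 and 153 against 85.7 and 103 (0.40, adjusted p 0.985). For Ovol2 and Zeb1 negative replicate 1 was under the filter level of 19.4. Twist1 was at -0.10. Trp63, which encodes the p63 regulator of Perp, was near the filter level in all arrays, at 13.6 to 28.0.

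**Figure D5:**
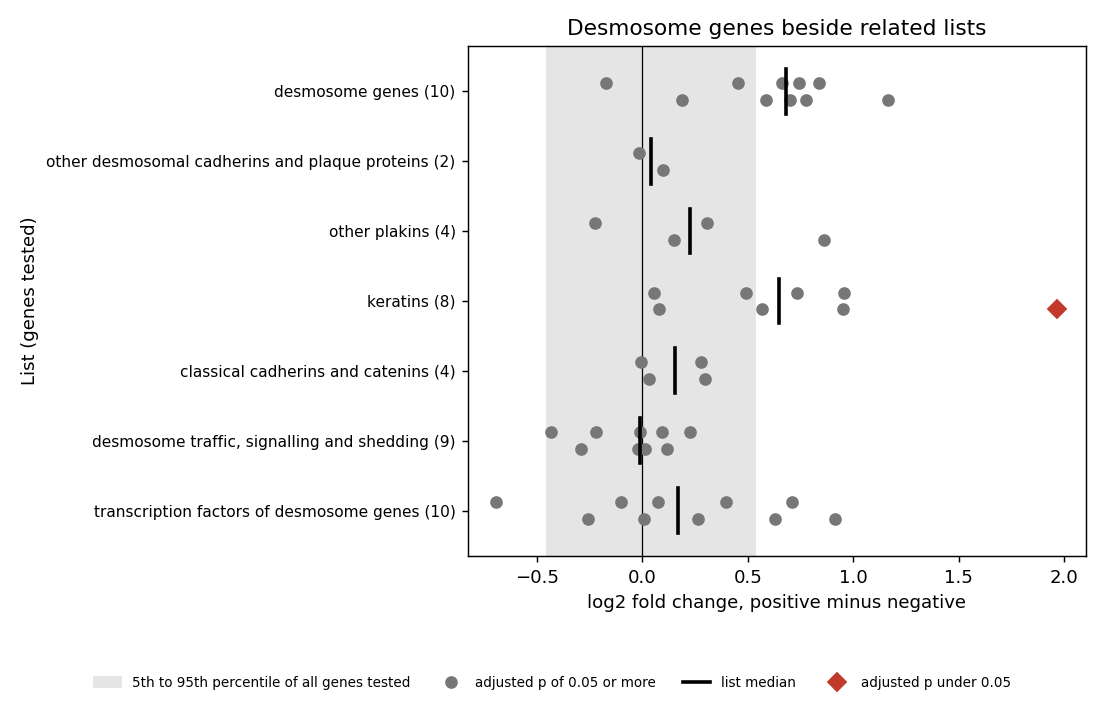
Log2 fold change, positive minus negative, of each tested gene of the desmosome set and 6 related lists; black bars are list medians, the red diamond (Krt14) is the one gene with an adjusted p under 0.05, and the grey band spans the 5th to 95th percentile of all genes tested. The desmosome genes have a median of 0.68 and the keratins of 0.65, or 0.57 without Krt5, and medians of the other lists lie between -0.01 and 0.23.

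By a distance between centred log2 profiles over the 4 arrays, the genes closest to Pkp1 were Rapgef5 (0.08), Clmn (0.14) and Epcam (0.19), the last being the called epithelial marker given above. Those closest to Dsp were Nat8f2 (0.03), Mink1 (0.04) and Spint1 (0.05). With 4 arrays many genes share a profile, so these are descriptions only.

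Markers of other cell types were set beside these values. Of 7 macrophage markers 6 rose above the filter level in some array. The summed signal of the 7 was 497 and 658 on the positive against 437 and 406 on the negative arrays. Of the 5 tested, 4 (Csf1r, Adgre1, Cd68 and Cd14) had each positive array above each negative one, against 18.5% of all genes. By limma 0 of the 5 had an unadjusted p under 0.05. The defining leukocyte gene Ptprc was at 0.825 to 12.7. Of 8 fibroblast markers 4 rose above the filter level in some array, with sums of 151 and 130 against 199 and 175, and Col1a1 at 1.95 to 15.1. That difference came from Pdgfra (47.0 and 33.5 against 108 and 76.6; log2 fold change -0.94, unadjusted p 0.0111, adjusted p 0.980 by limma), without which the sums were 104 and 96.5 against 90.9 and 98.3. Of 4 endothelial markers 2 rose above the level, with sums of 74.4 and 65.9 against 18.6 and 29.2 and Pecam1 at 3.95 to 6.90. These 2 were Cdh5, at 50.025 in positive replicate 1, and Kdr, at 34.125 in positive replicate 2. Each was under the filter level of 19.4 in the remaining arrays, and none of the 4 was tested. Of 3 lymphocyte markers 1 rose above the level, with sums of 22.3 to 31.8. Of 6 markers of stratified keratinocytes 4 rose above the level, with sums of 259 and 590.5 against 255 and 212. That sum was highest in positive replicate 2, the array with the highest Jup, Pkp3 and Perp, through loricrin, Lor, at 404 there and 79.7 to 105 elsewhere. The part of these cells in the desmosome differences was not tested. In such bulk RNA, fewer cells of a type and less RNA per cell cannot be told apart. Of the cardiomyocyte markers, listed because Pkp2, Dsg2 and Dsp also serve the heart, Myh6 was at 2.75 to 14.5 in all arrays, while Tnnt2 was bright in both groups, at 3557 to 4215.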

How the data were processed

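The deposited values are linear intensities, 1 per probe set and array (0.1 to 22695.6 over 45101 probe sets). GCOS is named without a role per the submitters' processing notes, and how the authors summarised or scaled the probes is not given in the sources used here. Arrays were quantile normalized and transformed as log2(signal + 16). The 64 control probe sets were removed, as were probe sets with a mean under the 40th percentile (a signal of 19.4). The brightest probe set stood for its gene, named from the platform annotation. The positive and negative groups were fitted with limma 3.58.1 in R 4.3.3, with an intensity trend in eBayes. Tests were two-sided and adjusted by Benjamini-Hochberg across 11956 genes. The procedure was tested on simulated data. The 2 arrays per group limit the precision. The members, related lists and alternatives were chosen with earlier results of these data known. Named were all 10 genes with every probe set and, from each related list, the genes past the threshold or else the 2 brightest. The 3 genes nearest in profile to Dsp and to Pkp1 were also named. Further named genes were chosen after their values were seen.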

Additional observations from a re-analysis of the deposited data

How the results depend on the processing

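Over all genes limma called 9 higher and 0 lower. The count called higher was 20 with arrays centred on their medians, 3 with no scaling, 3 with no filter, 2 without the intensity trend and 15 with the replicate block, and it ran from 6 to 18 with 1 array left out. The count called lower was 5 with centred arrays and 3 with the replicate block, and 0 to 1 with 1 array left out. Desmosome genes called higher were 0, or 1 without negative replicate 2 (Perp; 0 to 1 with 1 array left out), and none was called lower in any setting. Desmosome genes with both positive arrays above both negative arrays numbered 7, and 2 with no scaling; the other settings gave 5 to 9. Of 177 fold changes of desmosome genes under alternatives, 174 kept their direction and their side of the threshold, and that of Perp passed as stated. The log2 fold change of Dsp reversed to -0.0060 with no scaling and to -0.12 without negative replicate 1 (-0.12 to 0.49 with 1 array left out). The labels do not say that arrays of the same number share a day or culture, so the numbers were not taken as pairs. Deviations of same-numbered arrays correlated at 0.116 over all genes in 2 pairs. Among the 10 desmosome genes, replicate 2 was the higher in 10 in the negative and in 8 in the positive group. With the replicate block Pkp1 had a limma adjusted p of 0.0819, Perp 0.107, Pkp3 0.181, Jup 0.372 and Dsg2 0.414. The main fit gave 0.278 for Pkp1 and 0.980 to 0.985 for the others named, and 0 of the 10 passed in either fit. Dim signals limit Dsc2 and Evpl, whose fold changes depend on the pseudocount.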
